A study of Arabidopsis thaliana with 39 samples.

Results

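The phytocystatins described here are CYS1 (AT5G12140), CYS2 (AT2G31980), CYS3 (AT2G40880), CYS4 (AT4G16500), CYS5 (AT5G47550), CYS6 (AT3G12490) and CYS7 (AT5G05110) of Arabidopsis thaliana. They were taken by gene identifier, 7 of 27444 nuclear protein-coding genes with a row in every count table. The family was chosen by the level of CYS2, which was among the strongest rises between 1 h of imbibition and 1 day of treatment, so the levels at that step, and those of CYS2 between 1 day and 3 days, are given as description with no test. The other comparisons were not used to choose the genes.

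Phytocystatins are plant inhibitors of papain-like cysteine proteases, the enzymes that break down stored protein in germinating seeds and take part in senescence and defence. A short glutamine, valine and glycine motif in a loop of the cystatin fold enters the active site cleft of the protease. Some members carry a second, carboxy-terminal domain, and in barley a cystatin with such a domain also inhibits legumains, the vacuolar processing enzymes that mature seed storage proteins.

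Seeds that could germinate can be made dormant a further time, here by keeping them wet at 30 °C in the dark, and this is called secondary dormancy. RNA was measured in single whole seeds, all after-ripened for at least 6 months: dog1-4 and Col-0 seeds after 3 days of treatment (3d) and after 7 days of treatment followed by 24 h of recovery in the light (7d24h), and Col-0 seeds in a time course of 1 h of imbibition (1h), treatment lasting 1 (1d), 3 (3d), 5 (5d) or 7 days (7d), and 7d24h. dog1-4 is a mutant of DELAY OF GERMINATION 1 (DOG1), a gene needed for seed dormancy, and a pool-split control, in which RNA of 7d Col-0 seeds was mixed and divided again, gave the technical spread. Each group had 3 libraries of about 32 seeds, and 3 pools of dry seeds of each genotype, dog1-4 and Col-0, were measured in bulk.

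Counts were unique molecular identifiers (UMIs), 1 per captured mRNA 3′ end. The single-seed libraries held 731423 to 4993365 UMIs on protein-coding genes and the dry pools 836376 to 3378782. The share of UMIs outside these genes differed between time points, with library medians of 62.5 to 73.0% at 3d, 64.4 to 75.5% at 5d and 16.6 to 63.4% at the other time points, against 11.8 to 14.3% in the dog1 experiment. It was 51.4 to 57.3% in the pool-split control and 26.2 to 31.2% at 7d, so the control was not matched to 7d in this share. DOG1 itself was at 7.09 to 12.03 CPM in dog1-4 and 59.0 to 142.3 CPM in Col-0 at 3d, and at 3.6 to 7.9 and 69.5 to 80.9 CPM in the dry pools. In the third dog1-4 3d library, 8 of 32 seeds held leaf-type transcripts, with 5529 to 16314 CPM of RBCS1A, the small subunit of Rubisco, against at most 1604 CPM in any other seed of that experiment. Seeds of the time course came from 1 seed pool, and the study describes the 3 batches of each time point as technical replicates. The labels name no separate cultures for the dog1 experiment. The p-values of both measure the spread between batches of seeds, which are not biological replicates in the time course and may not be in the dog1 experiment. Seeds were measured whole, so that fewer cells of a type and less RNA per cell cannot be told apart.

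All 7 coding sequences hold the motif by which cystatins meet their proteases, and it is shown here because it is the feature that defines the family. Each line gives 39 bases of the coding strand, all within 1 exon, with the 5 codons of the motif in capitals (RefSeq, TAIR10.1).
CYS1: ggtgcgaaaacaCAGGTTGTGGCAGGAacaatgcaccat
CYS2: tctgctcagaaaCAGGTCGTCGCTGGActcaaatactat
CYS3: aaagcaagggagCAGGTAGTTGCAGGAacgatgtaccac
CYS4: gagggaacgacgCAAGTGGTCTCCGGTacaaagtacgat
CYS5: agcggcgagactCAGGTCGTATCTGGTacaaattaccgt
CYS6: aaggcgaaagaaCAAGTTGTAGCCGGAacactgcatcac
CYS7: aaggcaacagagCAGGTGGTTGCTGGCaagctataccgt

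These stretches lie at chr5:3923412-3923450 (CYS1, minus strand), chr2:13609372-13609410 (CYS2, minus), chr2:17057778-17057816 (CYS3, plus), chr4:9301641-9301679 (CYS4, minus), chr5:19286725-19286763 (CYS5, minus), chr3:3961362-3961400 (CYS6, minus) and chr5:1508241-1508279 (CYS7, minus). The motif reads the same in CYS2 as in CYS1, CYS3, CYS6 and CYS7 once translated, while CYS4 and CYS5 have a serine codon in place of the alanine codon. CYS6 and CYS7, with 234 and 232 codons, are longer than CYS2 (147), CYS3 (125), CYS5 (122), CYS4 (117) and CYS1 (101), and only these longer proteins hold the legumain-binding motif of serine, asparagine, serine and leucine. CYS2 shared 26.1 to 30.6% of aligned residues with the 6 other members, below the 31.7 to 57.6% of every pair without CYS2.

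CYS2 lies at chr2:13609093-13609955 on the minus strand, has 2 exons and is overlapped on the opposite strand by AT2G31970. Its promoter is shown because CYS2 is the member the family was chosen by, with matches to ACGTG, the core of elements bound by abscisic acid-responsive bZIP factors, in capitals on either strand (250 bases before the gene start and 50 after, chr2:13609906-13610205, RefSeq TAIR10.1).
CYS2 promoter: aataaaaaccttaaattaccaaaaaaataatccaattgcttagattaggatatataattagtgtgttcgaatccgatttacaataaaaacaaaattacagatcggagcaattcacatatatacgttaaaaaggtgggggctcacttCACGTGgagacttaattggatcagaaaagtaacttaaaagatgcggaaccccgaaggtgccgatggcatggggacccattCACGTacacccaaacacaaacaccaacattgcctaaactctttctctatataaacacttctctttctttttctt

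CYS2 had 3 matches to this core, a pair of which overlap as both strands of 1 palindrome, CYS3 had 2, also overlapping, and the other 5 promoters had none. Of 27443 promoters of this length, 26.7% hold the core. Of the other motifs searched on both strands, the site II element TGGGCC was found 3 times in CYS4 and once in CYS7 and is in 15.5% of promoters, and the RY element of seed promoters (CATGCA) was in none of the 7 and is in 9.72%. A match is only a run of letters, not a bound site.

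CYS2 was near the limit of detection at 1h, highest at 1d and lower than at 1d at every later time point. In CPM, UMI counts scaled to a common library size (TMM), CYS2 stood at 18.3, 14.04 and 13.0 in the 1h libraries, 1319.8, 1102.9 and 833 at 1d, 324, 384 and 272 at 3d, 391, 243 and 492 at 5d, 339, 274 and 265 at 7d, and 63.3, 70.6 and 49.2 at 7d24h. The 1h libraries held 29 UMIs of CYS2 in all and the 1d libraries 7382. Every 1d library lay above every library of the other time points, every 1h library lay below all others, and the ranges of 3d, 5d and 7d overlapped. The step to 1d was the value that chose the gene: a log2 fold change of 6.16 (71.7-fold), second of 8074 genes tested. Between 1d and 3d CYS2 was lower by 3.34-fold.

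**Figure D1:**
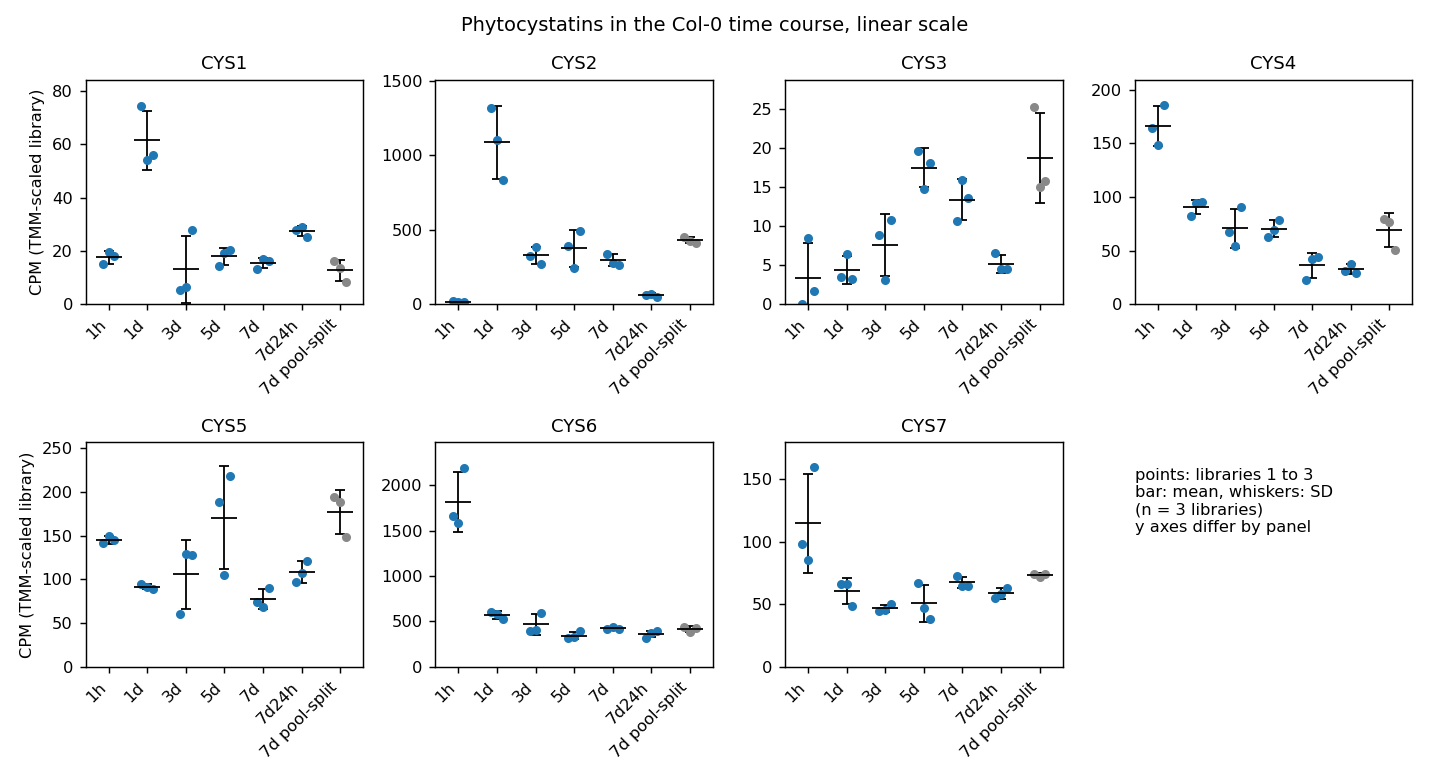
CPM of each phytocystatin (y axis, linear, own range per panel) in the 3 libraries of each Col-0 time point and of the 7d pool-split control (grey), with the mean as a bar and the SD as whiskers. CYS2 peaks at 1d with 833 to 1319.8 CPM, while CYS6, CYS4 and CYS7 have their highest means at 1h.

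Recovery brought CYS2 down further. At 7d24h its 3 libraries lay below all 3 libraries at 7d, with a log2 fold change of -2.26 ± 0.20 (SE, 95% interval -2.68 to -1.84, adjusted p = 2.2e-09, edgeR), a 4.80-fold lower level. Of the 6 members tested it alone was past the threshold at this step (adjusted p under 0.05 and a change beyond 2-fold), a threshold that 18.4% of all genes passed. Against 3d the log2 fold change at 7d24h was -2.41 ± 0.21 (adjusted p = 1.1e-09), at a step where 20.6% of genes were called. Both calls held in all 17 and all 16 alternatives tried. With the pool-split libraries in place of 7d, CYS1 (higher, adjusted p = 0.0031) and CYS4 (-1.10, adjusted p = 4.8e-05) were also past the threshold between 7d and 7d24h. The summed level of 8 seed storage and late embryogenesis genes (CRA1, CRC, OLEO1, SESA1, SESA3, EM6, EM1 and PER1) was 36277 to 40465 CPM at 7d24h, against 116096 to 141667 CPM at 7d, and their part in the change was not tested. Between 5d and 3d (0.22 ± 0.20) and between 7d and 5d (-0.37 ± 0.20) the adjusted p for CYS2 was 0.79 and 0.15.

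CYS1 was the other member with its highest level at 1d. Its transcript, known to be induced by wounding and heat, was at 14.9, 19.7 and 17.9 CPM at 1h, 74.3, 54.2 and 56.0 at 1d, 5.3, 6.2 and 27.7 at 3d, 14.4, 19.2 and 20.1 at 5d, 13.3, 17.1 and 16.0 at 7d, and 27.9, 29.1 and 25.2 at 7d24h. All 1d libraries lay above all libraries of the other time points, and at 3d the third library stood apart from the other two. The 1d level exceeded 1h by 1.80 on the log2 scale, given as description. From 1d to 3d CYS1 was lower by 1.92 on the log2 scale, also given as description. A gene needed a mean of 1 UMI per seed for the fit, and CYS1, at 1.42, passed only through the 1d libraries. These held 417 UMIs of CYS1, against 34 to 272 in each other group. Of the 5 other members tested CYS1 alone lay past the threshold between 1d and 3d, as did 16.7% of all genes, and nothing is read from this count.

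Recovery went with more CYS1 in these libraries, but short of the threshold. Every 7d24h library lay above every 7d library, with a difference of 0.83 ± 0.28 on the log2 scale (adjusted p = 0.014). Against 3d the difference was 0.75 ± 0.32 (adjusted p = 0.051), and without the third 3d library it was 2.22 and past the threshold.

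CYS6, CYS4 and CYS7 had their highest means at 1h. CYS6, a member with the legumain-binding motif, was at 1661, 1589 and 2194.5 CPM at 1h, 602, 580.3 and 526 at 1d, and between 318 and 597 CPM in the 12 later libraries. No 1h library of CYS6 overlapped a later one, and the 1d level was 3.19-fold lower than 1h. CYS4, a single-exon gene whose product has been linked to heat tolerance, was at 164, 149 and 186 CPM at 1h, 82.7, 94.2 and 94.97 at 1d, 67.7, 54.7 and 90.7 at 3d, 62.8, 69.3 and 78.5 at 5d, 22.6, 42.1 and 43.9 at 7d, and 30.9, 37.7 and 28.8 at 7d24h. CYS4 at 7d and 7d24h lay below every earlier library. CYS7, the second member with the legumain-binding motif, was at 98.0, 85.6 and 159.8 CPM at 1h, against 38.2 to 72.6 CPM in all 15 later libraries.

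Between 1h and 1d, the step that chose CYS2, CYS1 lay past the threshold upward and CYS6 downward among the 5 other members tested, as did 26.9% of all genes, and nothing is read from this count. CYS7, CYS4 and CYS5 had log2 fold changes of -0.92, -0.87 and -0.67 there. These lower values depend on the scaling: with all 20216 genes that pass a wider low-count filter (filterByExpr) in the scaling, the median of the 8074 genes moves by 0.72 and the value of CYS5 becomes 0.037.

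CYS5, an abscisic acid- and heat-inducible member, spread widely at 3d and 5d. It was at 141, 150.2 and 145 CPM at 1h, 94.5, 91.2 and 89.0 at 1d, 60.6, 129.7 and 128.3 at 3d, 188.4, 104.6 and 218.3 at 5d, 73.9, 68.3 and 89.9 at 7d, and 97.2, 106.9 and 121.6 at 7d24h. The 7d libraries lay below all 5d libraries, the only step at which CYS5 was called (-1.13 ± 0.21, adjusted p = 2.1e-04), and CYS5 was the 1 member of 6 called there, against 11.5% of all genes. Without the third 5d library the value was -0.90 and short of 2-fold, and with all genes of the wider low-count filter in the scaling it was -0.25. The pool-split libraries of 7d seeds had 194.9, 188.1 and 148.4 CPM of CYS5, above the 7d libraries, and with them in place of 7d the difference from 5d was 0.041 (adjusted p = 0.92). CYS4 differed at the same step by -0.95 ± 0.23 (adjusted p = 0.002) and by -0.02 with the pool-split libraries.

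No member was called between 3d and 5d by edgeR or DESeq2, and 2 of 6 had an unadjusted p under 0.05, at a step with 0.186% of all genes past the threshold. From 3d to 7d24h CYS4 fell with CYS2, by 1.18 ± 0.21 (adjusted p = 5.5e-05), making 2 of 6 members called, against 20.6% of all genes. Without the third 3d library the value for CYS4 was -0.91 and short of the threshold, as it was at -0.43 with the wider filter. CYS6 and CYS7 were not past the threshold at any step after 1d. With the wider filter CYS4, CYS6 and CYS7 were called lower at 3d than at 1d (-1.09, -1.05 and -1.13), and CYS6 and CYS7 were called higher at 7d than at 5d (1.19 and 1.33), under median shifts of -0.77 and 0.90. From 3d to 7d24h the same filter moved the median by 0.74, and CYS7 (1.06, adjusted p = 5.5e-04) and CYS1 (adjusted p = 1.4e-04) were called higher. With this filter 10128 (1d to 3d), 11131 (5d to 7d) and 10915 (3d to 7d24h) of 20216 genes were called, and nothing is read from these member calls.

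CYS3 had a mean of 0.454 UMIs per seed in the time course, below the minimum of 1 that a gene needed for the fit, and was left out of these counts. It was at 0 to 8.4 CPM at 1h, 14.7 to 19.6 at 5d, 10.7 to 15.9 at 7d and 4.4 to 6.5 at 7d24h. When the fit took in the 20216 genes of the wider filter, CYS3 was lower at 7d24h than at 7d by 1.33 ± 0.39 on the log2 scale (adjusted p = 0.0099).

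The genes with time profiles most like that of CYS2, by Pearson r of log2 CPM over the 18 time course libraries, were MEE8 (AT1G25310, r = 0.95), ALDH2C4 (AT3G24503, 0.95), UBC28 (AT1G64230, 0.95), AT1G56220 (0.94) and BIN2 (AT4G18710, 0.92). ALDH2C4 is an aldehyde dehydrogenase of phenylpropanoid metabolism, UBC28 a ubiquitin-conjugating enzyme and BIN2 a kinase of brassinosteroid signalling. Over the 12 libraries of the dog1 experiment their r with CYS2 was 0.98, 0.75, 0.95, 0.87 and 0.98 in the same order. The libraries of a time point share their seeds' treatment, so that these points are not independent. MEE8 averaged 518 CPM at 1d and 44.9 CPM at 7d24h. Among the other members tested, r with CYS2 in the time course ran from -0.63 (CYS7) to 0.25 (CYS1). In the dog1 experiment it was 0.94 for CYS6, 0.92 for CYS5, 0.84 for CYS4, 0.80 for CYS7 and -0.78 for CYS1.

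In the dog1 experiment, CYS2 did not differ detectably between the genotypes at either time. At 3d it was at 425.5, 481.3 and 338.9 CPM in dog1-4 and 511.5, 476.0 and 419.0 CPM in Col-0, and the ranges overlapped. At 7d24h it was at 146.1, 188.6 and 143.3 CPM in dog1-4 and 184.1, 173.9 and 139.7 CPM in Col-0, again overlapping. The log2 differences, dog1-4 minus Col-0, were -0.18 (95% interval -0.54 to 0.19, adjusted p = 0.60) and -0.06 (-0.42 to 0.31, adjusted p = 0.81). In each genotype the 7d24h libraries lay below all 3d libraries, with log2 fold changes of -1.38 ± 0.17 in dog1-4 (adjusted p = 2.9e-05) and -1.50 ± 0.17 in Col-0 (adjusted p = 5.9e-05). The difference between those changes was 0.12 (interval -0.40 to 0.63, adjusted p = 0.80).

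**Figure D2:**
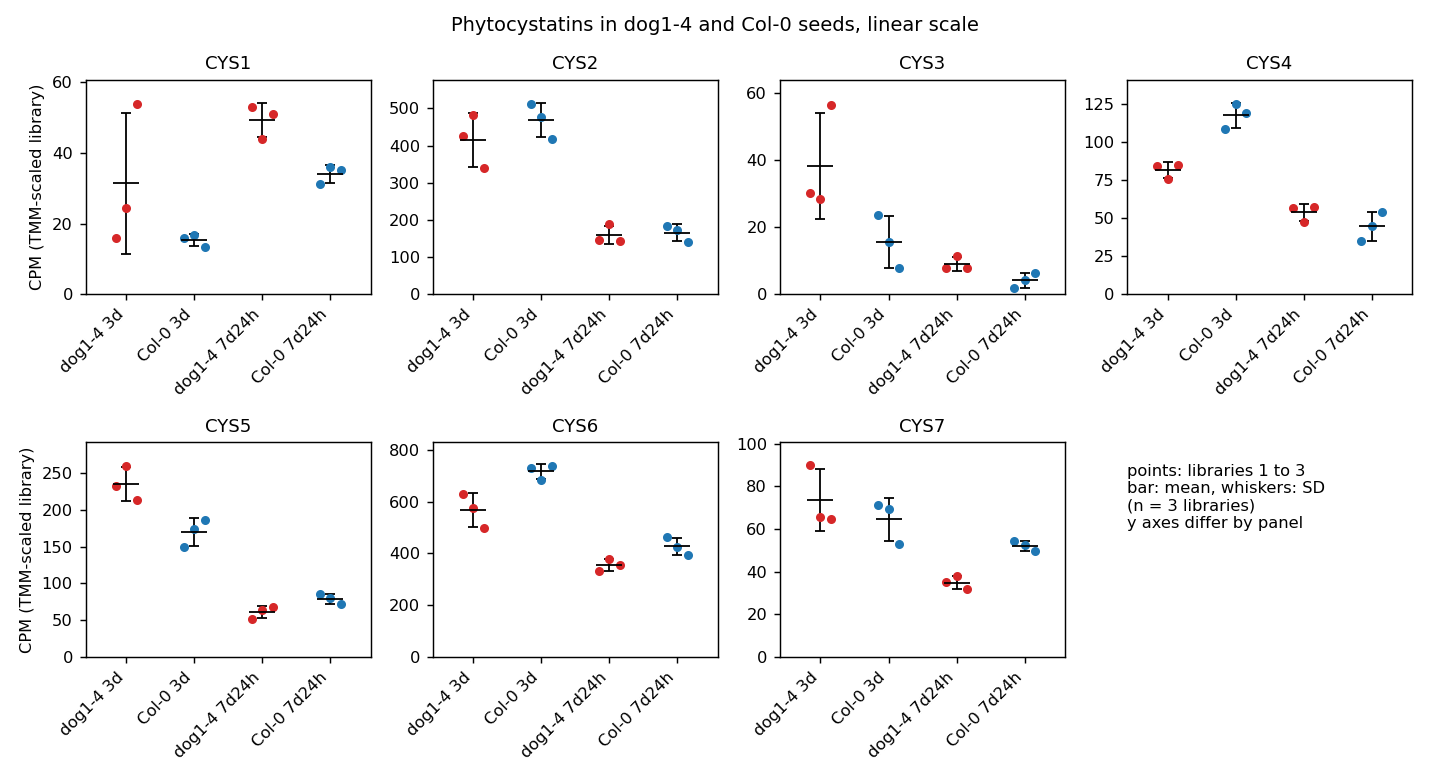
CPM of each phytocystatin (y axis, linear, own range per panel) in the 3 dog1-4 (red) and 3 Col-0 (blue) libraries at 3d and at 7d24h, with the mean as a bar and the SD as whiskers. CYS2 falls at 7d24h to 143.3 to 188.6 CPM in dog1-4 and 139.7 to 184.1 CPM in Col-0, and the genotypes overlap at both times.

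No member was past the threshold between the genotypes at 3d, where 1.01% of 11019 genes were, nor at 7d24h, where 10% were, by edgeR or DESeq2, while 5 of 7 at 3d and 4 of 7 at 7d24h had an unadjusted p under 0.05. CYS5 was at 233.1, 259.7 and 212.9 CPM in dog1-4 and 149.1, 174.3 and 186.7 CPM in Col-0 at 3d, and at 51.7, 63.9 and 68.0 CPM in dog1-4 and 85.7, 79.9 and 71.7 CPM in Col-0 at 7d24h. Every dog1-4 library of CYS5 was above Col-0 at 3d and below Col-0 at 7d24h, with log2 differences of 0.47 ± 0.14 (adjusted p = 0.10) and -0.37 ± 0.14 (adjusted p = 0.061).

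CYS4 was at 84.2, 75.4 and 84.6 CPM in dog1-4 and 108.5, 125.0 and 118.6 CPM in Col-0 at 3d, with no overlap (-0.53 ± 0.16, adjusted p = 0.098). At 7d24h it was at 56.8, 47.4 and 57.4 CPM in dog1-4 and 35.1, 44.8 and 53.9 CPM in Col-0, with overlapping ranges. CYS7 was lower in every dog1-4 library at 7d24h, at 35.0, 37.8 and 31.9 CPM, than in the Col-0 libraries, at 54.5, 52.3 and 49.7 CPM. Its difference there of -0.58 ± 0.16 had an adjusted p of 0.016 but was under 2-fold.

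CYS3 and CYS1 had the largest differences at 3d, but their dog1-4 libraries were uneven. CYS3 was at 30.1, 28.3 and 56.4 CPM in dog1-4 and 23.5, 15.5 and 7.9 CPM in Col-0, and CYS1 at 15.8, 24.5 and 53.9 CPM in dog1-4 and 15.9, 16.6 and 13.4 CPM in Col-0. The highest value of both was in the third dog1-4 library, the one with leaf-type transcripts, where the summed level of RBCS1A, LHCB1.1 and LHCA1 reached 4222 CPM against 44.5 CPM in the lowest dog1-4 library and 33.4 to 54.6 CPM in Col-0. CYS3 averaged 1.27 UMIs per seed here and passed the minimum of 1 only through the dog1-4 3d libraries. These held 238 of its UMIs, 154 of them in the third, against 77 (Col-0 3d), 123 (dog1-4 7d24h) and 48 (Col-0 7d24h). Its differences from that group are given as description with no test, though CYS3 stays in the counts of 7 members. The differences at 3d were 1.33 ± 0.41 (CYS3) and 1.11 ± 0.35 (CYS1, adjusted p = 0.12). Without the 8 seeds with leaf-type transcripts they were 1.05 (CYS3) and 0.42 (CYS1, adjusted p = 0.30). Without the first dog1-4 library that of CYS1 was 1.40 (adjusted p = 0.018). At 7d24h CYS3 differed by 1.07 ± 0.45 (adjusted p = 0.083), and by 1.53 and past the threshold without the third library of every group.

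From 3d to 7d24h, 4 of 7 members fell and none rose in dog1-4, where 33.6% of all genes were called, and 4 fell and 1 rose in Col-0, where 21.8% were called. The median change of the 7 members was -1.07 in dog1-4 and -1.10 in Col-0, against 0.01 and 0.02 over all genes tested. In the Col-0 time course the median change of the 6 members tested was only -0.20 at this step, against -0.004 over all genes tested. CYS2 and CYS5 were called lower in both genotypes. So was CYS3, whose fall in dog1-4 starts from the group that brought it past the low-count limit. CYS5 changed by -1.94 ± 0.14 on the log2 scale in dog1-4 (adjusted p = 1.9e-06) and by -1.10 ± 0.14 in Col-0 (adjusted p = 1.2e-04). CYS3 changed by -2.11 ± 0.40 in dog1-4, given as description with no test, and by -1.85 ± 0.47 in Col-0 (adjusted p = 0.0067). At 7d24h CYS3 was at 7.9, 11.4 and 7.8 CPM in dog1-4 and 1.9, 4.4 and 6.3 CPM in Col-0. Without the first library of every group the Col-0 value was -1.14 for CYS3 (adjusted p = 0.11), and without the third that for CYS5 was -0.96, both short of the threshold.

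CYS7 was called lower in dog1-4 (-1.07 ± 0.16, adjusted p = 1.3e-04) and not in Col-0 (-0.31 ± 0.16, adjusted p = 0.13). CYS4 was called lower in Col-0 (-1.39 ± 0.16, adjusted p = 5.8e-05) and not beyond 2-fold in dog1-4 (-0.60 ± 0.16, adjusted p = 0.0054). The tests of these genotype differences themselves gave -0.76 ± 0.23 for CYS7 (adjusted p = 0.066) and 0.79 ± 0.22 for CYS4 (adjusted p = 0.054), neither past the threshold. Without the first dog1-4 3d library the dog1-4 change of CYS7 was -0.90, short of 2-fold.

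CYS1 rose in Col-0 (1.16 ± 0.34, adjusted p = 0.014), the only member called higher, with 31.3, 36.1 and 35.1 CPM at 7d24h, all above the 3d libraries, and without the third Col-0 3d library the change was 1.07 (adjusted p = 0.052). In dog1-4 CYS1 was at 53.0, 43.8 and 50.9 CPM at 7d24h and the change was 0.58 ± 0.30 (adjusted p = 0.11). Without the 8 seeds with leaf-type transcripts it was 1.23 and past the threshold. CYS6 was lower at 7d24h in both genotypes, with adjusted p under 0.05 but changes of -0.67 ± 0.12 in dog1-4 and -0.75 ± 0.12 in Col-0, each under 2-fold.

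No member passed both limits in the test of whether the change differed between the genotypes, which 4.07% of genes passed, by edgeR or DESeq2, and 3 of 7 had an unadjusted p under 0.05. CYS5 had the lowest adjusted p, with a difference of -0.83 ± 0.20 (adjusted p = 0.032) that is short of 2-fold, and over the alternatives its adjusted p ran from 0.0034 to 0.49. Without the third library of every group the value for CYS5 was -1.17 (adjusted p = 0.0039) and past both limits. The 8 seed genes summed to 13092 to 15905 CPM in dog1-4 and 42129 to 63921 CPM in Col-0 at 7d24h, and the leaf genes to 211 to 340.4 CPM in dog1-4 and 103 to 117 CPM in Col-0, and their part in the members' changes was not tested.

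**Figure D3:**
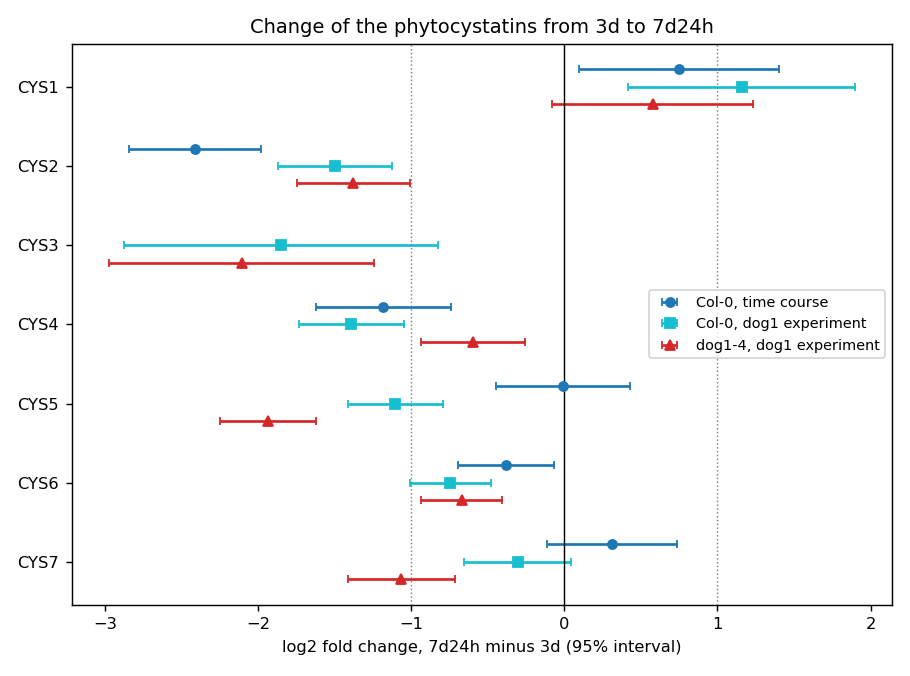
Change of each phytocystatin between 3d and 7d24h (x axis, log2 fold change with its 95% interval) in Col-0 seeds of the time course, and in Col-0 and dog1-4 seeds of the dog1 experiment. Dotted lines mark 2-fold, and CYS2 lies beyond it in all 3 series with values of -2.41, -1.50 and -1.38, while CYS5 lies near 0 in the time course and below -1 in the dog1 experiment.

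The time course and the dog1 experiment were scaled separately, so changes rather than levels were set side by side, and the difference between them was not tested. CYS2 and CYS4 fell from 3d to 7d24h in Col-0 in both, with log2 changes of -2.41 and -1.18 in the time course and -1.50 and -1.39 in the dog1 experiment. CYS5 changed by -0.01 (95% interval -0.45 to 0.43) in the time course and by -1.10 (-1.41 to -0.80) in the dog1 experiment.

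In dry seeds, by contrast, CYS2 was higher in dog1-4. The dog1-4 pools had 103.6, 49.7 and 44.9 CPM of CYS2, against 4.5, 5.1 and 13.0 CPM in the Col-0 pools, from 200, 164 and 108 UMIs in dog1-4 and 6, 4 and 16 UMIs in Col-0. The lowest dog1-4 pool was above the highest Col-0 pool. The log2 fold change was 3.05 ± 0.38 (95% interval 2.27 to 3.84, 8.30-fold, adjusted p = 6.7e-06), which placed CYS2 at rank 16 of 9493 genes from the highest, and it stayed called in 12 of 12 alternatives with values of 2.26 to 3.97. Whether the counting of the dry pools used the strand is not given in the sources used here, so reads of the overlapping AT2G31970 cannot be set apart by strand.

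**Figure D4:**
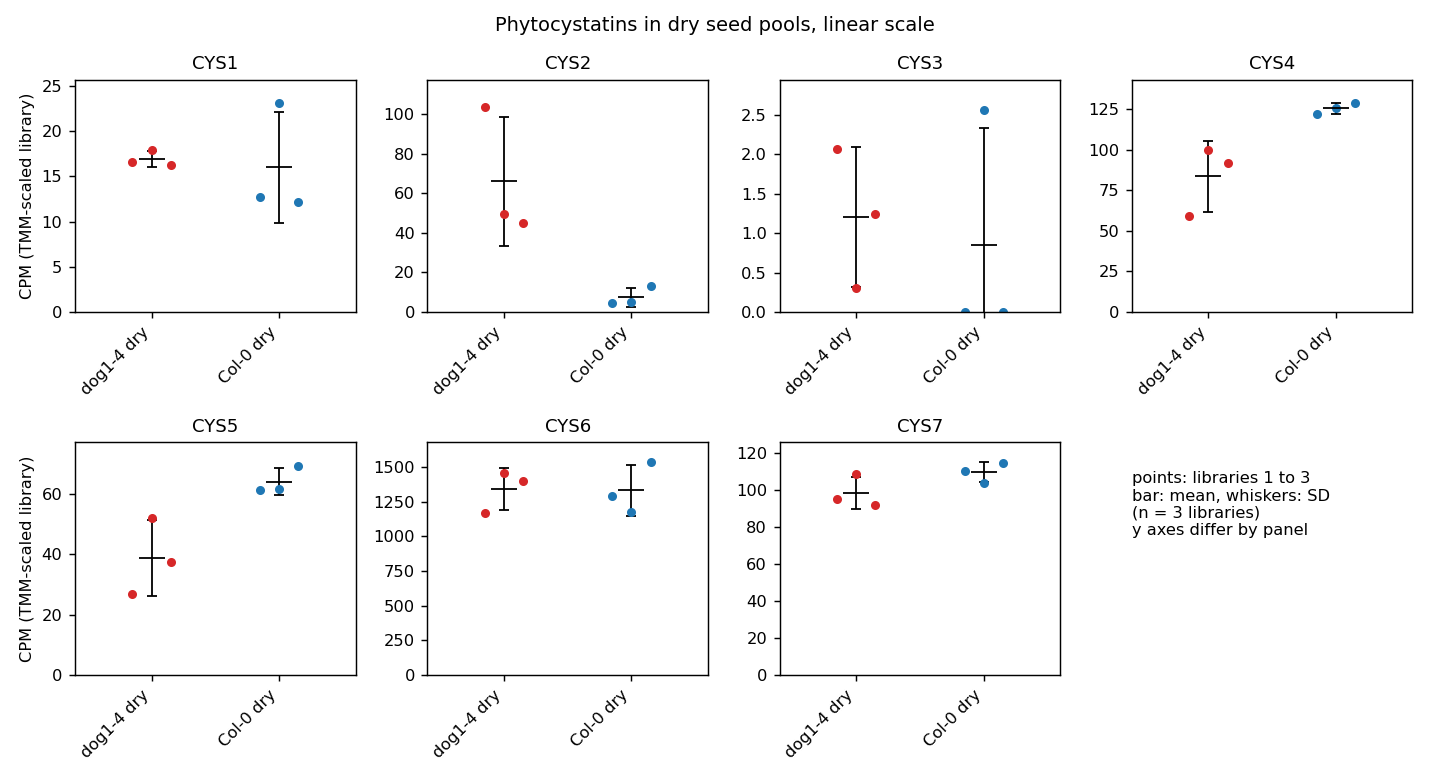
CPM of each phytocystatin (y axis, linear, own range per panel) in the 3 dry dog1-4 pools (red) and the 3 dry Col-0 pools (blue), with the mean as a bar and the SD as whiskers. CYS2 is at 44.9 to 103.6 CPM in dog1-4 and 4.5 to 13.0 CPM in Col-0, and CYS4 and CYS5 lie lower in dog1-4.

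Of the 6 members tested in the dry pools, 1 was called higher and 2 lower, at a call rule without a minimum fold that 9.95% of genes passed. CYS5 was at 26.9, 52.2 and 37.4 CPM in dog1-4 and 61.3, 61.7 and 69.3 CPM in Col-0 (-0.69 ± 0.21, adjusted p = 0.036). CYS4 was at 59.0, 100.1 and 91.5 CPM in dog1-4 and 121.8, 125.9 and 128.8 CPM in Col-0 (-0.57 ± 0.18, adjusted p = 0.048, and 0.052 with the replicate block). Neither range overlapped between the genotypes, but the call for CYS5 held in 4 and that for CYS4 in 2 of 12 alternatives, and without the first dog1-4 pool the values were -0.50 and -0.38 with adjusted p above 0.05.

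CYS6, at 1171, 1454 and 1399 CPM in dog1-4 and 1292, 1173 and 1535 CPM in Col-0, had a difference of 0.01 (95% interval -0.35 to 0.36), and CYS7 and CYS1 had differences of -0.16 (-0.49 to 0.17) and 0.16 (-0.42 to 0.74). CYS3 had 8 UMIs in the dog1-4 pools and 2 in the Col-0 pools in all, too few for the fit. The seed genes summed to 105696 to 123617 CPM in dog1-4 and 84133 to 106822 CPM in Col-0, and the leaf genes to 61.3 to 96.3 CPM in dog1-4 and 14.1 to 30.2 CPM in Col-0, with LHCB1.1 at 0 in every Col-0 pool. The part of either list in the differences of CYS2, CYS4 and CYS5 was not tested.

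The proteases that phytocystatins inhibit were looked up from a list of 32 papain-like enzymes and 4 legumains. In the dry pools 7 papain-like genes passed the low-count filter, and 4 of them were called higher in dog1-4 and none lower, against 9.95% of all genes called. AT4G01610, a cathepsin B-like protease, was at 133.1, 133.7 and 138.6 CPM in dry dog1-4 pools and 46.3, 37.2 and 47.3 CPM in Col-0 pools, a difference of 1.61 ± 0.17 (adjusted p = 1.1e-06). RD21A, a drought-responsive protease, differed by 2.94, AT3G45310, an aleurain-like gene, by 2.85, and RD19, a drought-responsive gene, by 1.67. AT3G54940 and AT4G11310, the other papain-like genes among the 3 of highest level, were not called in dry seeds (-0.39, adjusted p = 0.19, and -0.58, adjusted p = 0.070), nor were the legumains BETA-VPE and GAMMA-VPE (0.21 and 0.34).

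From 7d to 7d24h in the time course, where CYS2 fell, 2 of the 6 papain-like genes tested rose (AT3G45310 by 2.35 and RD19 by 1.96 on the log2 scale) and AT3G54940 fell by 1.18, and neither of the 2 legumains tested was called, against 18.4% of all genes called. AT3G45310 was at 160.5, 127.0 and 90.7 CPM at 7d24h and 28.0, 22.8 and 23.2 CPM at 7d, without overlap. At earlier steps some proteases moved the same way as CYS2, given as description. From 1h to 1d AT4G01610 rose by 4.59 and AT3G45310 by 2.13, while AT4G11310 and GAMMA-VPE were lower (-3.10 and -1.22), against 26.9% of all genes called. From 1d to 3d AT4G01610 and AT3G45310 were lower (-1.88 and -2.33) and RD19 was higher (1.19), against 16.7% of all genes. In the dog1 experiment, AT4G11310 and AT3G54940 fell more in dog1-4 than in Col-0 between 3d and 7d24h (differences of -1.87 ± 0.37 and -1.10 ± 0.25). GAMMA-VPE differed in the same test by -1.49 ± 0.27. It was at 42.6, 35.8 and 38.1 CPM in dog1-4 and 100.3, 85.0 and 67.0 CPM in Col-0 at 7d24h. These were 2 of 11 papain-like genes and 1 of 3 legumains tested there, against 4.07% of all genes. From 3d to 7d24h itself, 3 of the 11 papain-like genes were called higher and 3 lower in dog1-4, against 33.6% of all genes. In Col-0 3 were higher and 1 lower, against 21.8%. AT4G16190, among those lower in dog1-4, was above Col-0 at 3d by 7.34 ± 1.72, in the group with the leaf-type seeds. It may have passed the low-count minimum only through that group, so its fall (-3.81) is given as description with no test. AT4G16190 and CP1, the latter called higher in both genotypes, were not in the time course fit, and nothing is read from these counts. At 3d AT4G01610 was the 1 papain-like gene called between the genotypes, higher in dog1-4 (1.22 ± 0.16, adjusted p = 0.0030), where 1.01% of all genes were called. The dog1-4 3d group holds the library with leaf-type seeds, whose part in this difference was not tested. Other proteases were called higher in dog1-4 than in Col-0 at 7d24h, where 10% of all genes were called. RD21A was at 109.8, 89.4 and 127 CPM in dog1-4 and 9.67, 7.51 and 7.59 CPM in Col-0 (3.72 ± 0.82), and RD21B (4.05), RD19 and the legumain DELTA-VPE (1.65) were also higher without overlap. RD21A, RD21B and DELTA-VPE were not in the time course fit. Here they may have passed the low-count minimum through the dog1-4 libraries, where they were higher, so their differences are given as description with no test. With AT4G11310 (-2.58) and GAMMA-VPE (-1.12) called lower, 3 of 11 papain-like genes were higher and 1 lower, and 1 of 3 legumains was higher and 1 lower. These counts include RD21A, RD21B and DELTA-VPE, and nothing is read from them. The leaf genes were higher in dog1-4 there too, as given above, and their part in these differences was not tested.

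CYS2 was counted in nearly every treated seed. With each seed thinned to 5000 UMIs, so that depth was equal, CYS2 had a UMI in 4.3 ± 1.9% of seeds at 1h, 96.9 ± 0% at 1d, 71.9 ± 3.1% at 3d, 70.8 ± 12.6% at 5d, 68.8 ± 6.9% at 7d and 33.7 ± 2.2% at 7d24h (mean ± SD over 3 libraries). Without thinning the shares were 25.9, 100, 96.9, 95.8, 97.8 and 92.6% in the same order. In the dog1 experiment the thinned share was 85.3 ± 3.5% in dog1-4 and 75.8 ± 11.7% in Col-0 at 3d, and 42.7 ± 6.5% in dog1-4 and 60.4 ± 6.5% in Col-0 at 7d24h, differences that were not tested. These are shares of seeds with a UMI, not of seeds that express the gene, and the SD is the spread between libraries.

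**Figure D5:**
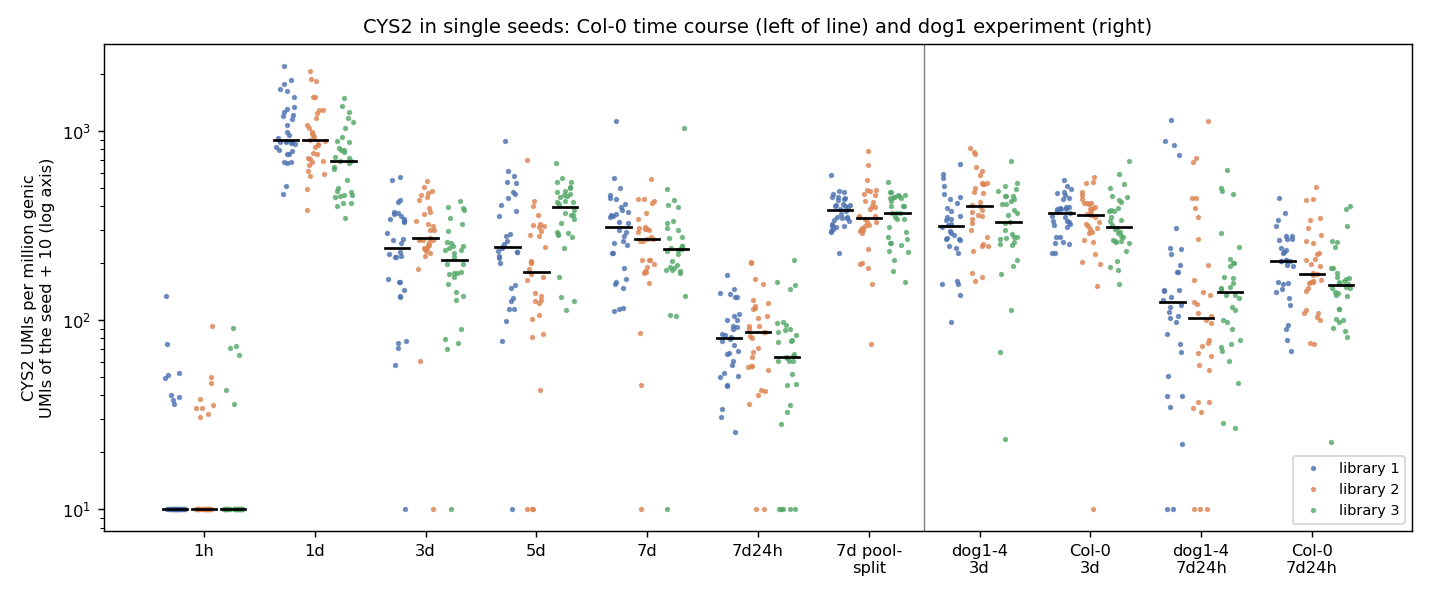
CYS2 in each seed (y axis, CPM over the protein-coding UMIs of that seed plus 10, log axis) by time point of the Col-0 time course and pool-split control, and by genotype and time of the dog1 experiment, with colours for the 3 libraries and black bars at library medians. Seeds of the dog1 experiment at 7d24h run from 0 to 1127 CPM in dog1-4 and from 12.5 to 496 CPM in Col-0, and Col-0 seeds of the time course at 7d24h from 0 to 199 CPM.

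Seeds of 1 group were unequal in CYS2 beyond counting error in some libraries. Spread was measured as the squared coefficient of variation in excess of that expected from counting, which is 0 when the spread equals counting error. At 7d it was 0.299 ± 0.271, against 0.020 ± 0.035 in the pool-split control (SD, n = 3 libraries each, two-sided exact permutation p = 0.2, where the smallest possible is 0.1). The single values at 7d were 0.564, 0.024 and 0.310, and 1 of these 3 lay within the range of the control. CYS1 had 0.829 ± 0.902 at 7d and 0.062 ± 0.170 in the control (exact permutation p = 0.1, n = 3 each), and the other 5 members had exact p of 0.2 to 0.7.

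In dog1-4 seeds at 7d24h the excess spread of CYS2 was 1.155 ± 0.780, against 0.135 ± 0.067 in Col-0 seeds, with every dog1-4 library (0.435 to 1.98) above every Col-0 library (0.059 to 0.182). This difference was not tested. In CPM of the single seed, CYS2 reached 1127 in the highest dog1-4 seed and was 0 in 5 of 96 dog1-4 seeds, against a highest Col-0 seed of 496 and none of 96 at 0. Seeds at 0 were not limited to dog1-4: in the time course, 88 of 95 Col-0 seeds at 7d24h held a UMI of CYS2. In the dog1 experiment, library medians at 7d24h were 92.9 to 131 CPM in dog1-4 and 143 to 196 CPM in Col-0, without overlap. For CYS6 the excess spread at 7d24h was 0.323 ± 0.043 in dog1-4 and 0.097 ± 0.056 in Col-0. With dog1-4 first, it was 0.617 ± 0.174 and 0.148 ± 0.113 for CYS7 and 0.335 ± 0.082 and 0.154 ± 0.087 for CYS5. In the same order it was 0.785 ± 0.456 and 0.468 ± 0.354 for CYS4, and 0.813 ± 0.602 and 0.543 ± 0.906 for CYS3. CYS1 had 0.202 ± 0.123 and 0.092 ± 0.089. These differences were not tested either. The same measure was not taken over all genes, so nothing particular to the phytocystatins is read from them.

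Within libraries, the level of CYS2 in a seed was set beside the summed level of the 8 seed genes. In the time course, Spearman's rho over the seeds of a library was -0.25 to 0.09 in the 3 libraries at 1h, -0.59 to -0.44 at 1d, -0.09 to 0.67 at 3d, 0.40 to 0.83 at 5d, 0.04 to 0.37 at 7d, -0.13 to 0.02 at 7d24h, and 0.04 to 0.37 in the pool-split control. In the dog1 experiment it was -0.21 to 0.46 in dog1-4 and -0.01 to 0.32 in Col-0 at 3d, and 0.13 to 0.52 in dog1-4 and 0.28 to 0.32 in Col-0 at 7d24h. Both values of a seed share its library depth and total, and the coefficients are a description.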

How the data were processed

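Single seeds and dry pools were sequenced from mRNA 3′ ends with UMIs. Per the labels and the study's methods, the authors mapped reads with STAR 2.7.8a to TAIR10 with Araport11 and deposited raw UMI counts per gene, stranded for single seeds; for dry pools they used UMI-tools 1.1.0 and HTSeq 0.11.3. Here, a seed was kept when its nuclear protein-coding genes summed to 5000 UMIs or more (665 of 672 in the time course with its control, 382 of 384 in the dog1 experiment) and summed per library, the unit of replication. The time course kept genes averaging 1 UMI or more in kept seeds and with a correlation of at most 0.3 with UMIs outside these genes (8074); the dog1 experiment the first limit only (11019), since the second would leave 679; the dry pools filterByExpr (9493). CPM use the TMM-scaled library size over tested genes or, for a single seed, its protein-coding UMIs. edgeR 4.0.16 (R 4.3.3) quasi-likelihood tests used group means and Benjamini-Hochberg adjustment over all genes tested. A gene was called at an adjusted p under 0.05 and a log2 change beyond 1 (dry pools: no minimum). Time steps share libraries, as do the contrasts within the dog1 experiment, so these are not independent. DESeq2 1.42.0, replicate blocks, other filters and left-out libraries were alternatives. Library numbers were not used as pairs in the main fit. Deviations of same-numbered libraries from their group means had r = 0.32, 0.16 and 0.16 for Col-0 7d24h and 3d of the dog1 experiment, where the block changed no member's call. All other comparisons had a lower smallest r, though some had only positive values, such as 0.25, 0.07 and 0.24 for 7d24h and 7d. The fit was tested on simulated data. Counting limits cover counting error only. Named genes were all 7 members, the called and the 3 highest proteases of each list, and the 5 genes most like CYS2. The members and lists were chosen with earlier results of these data known. Sequences are from RefSeq (TAIR10.1).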

Additional observations from a re-analysis of the deposited data

Results flagged for a closer look

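These results were set apart because the change from 3d to 7d24h had an adjusted p under 0.05 for a difference between dog1-4 and Col-0 (interaction test, dog1-4 change minus Col-0 change, edgeR, 3 libraries per group) for 1 phytocystatin and 4 proteases, of which CYS5 and BETA-VPE are under 2-fold and not among the genes called. The difference was -0.83 ± 0.20 for CYS5 (adjusted p = 0.032) on the log2 scale. Among the proteases it was -1.87 ± 0.37 for AT4G11310 (adjusted p = 0.017), -1.10 ± 0.25 for AT3G54940 (adjusted p = 0.028), -1.49 ± 0.27 for GAMMA-VPE (adjusted p = 0.012) and -0.69 ± 0.18 for BETA-VPE (adjusted p = 0.044). Of all genes 449 were called in this test, and 0 to 1352 with libraries left out (0 without the second library of every group).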

How the results depend on the processing

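For the comparisons tested, CYS2 kept its side of the threshold in every alternative that included it. Its direction held from 7d to 7d24h, from 3d to 7d24h in both experiments, between the genotypes at 3d (-0.30 to -0.04) and in the dry pools. In the dog1 experiment the limit of 0.3 on the correlation with UMIs outside protein-coding genes left out CYS2 (r = 0.40). Every other member except CYS3 (r = 0.25) was left out too, so that alternative gave no value for them. The uncalled genotype difference of CYS2 at 7d24h ran from -0.20 to 0.08. Its described values were 6.89 (filterByExpr) and 6.89 (no low-count filter) for 1d minus 1h, and -2.52 and -2.64 for 3d minus 1d. Leaving out libraries one at a time, the pool-split libraries and the leaf-type seeds were chosen after seeing the data. CYS5 at 7d minus 5d reversed to 0.041 with the pool-split libraries, and CYS3 in the dog1-4 change to 0.10 under the limit of 0.3 on the correlation with UMIs outside protein-coding genes; the causes were not tested. Under filterByExpr the median of the main genes moved by 0.72 (1d minus 1h), -0.77 (3d minus 1d), -0.16 (5d minus 3d), 0.90 (7d minus 5d) and 0.74 (7d24h minus 3d) on the log2 scale, so smaller changes in the time course are relative to the genes used for scaling.

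In the time course, filterByExpr and no low-count filter test more genes. For 1d minus 1h the count of 2175 became 9686 and 10997, and for 3d minus 1d the count of 1349 became 10128 and 12649, and 2055 without the correlation limit. For 5d minus 3d the count of 15 became 8 (filterByExpr), 8 (no correlation limit) and 0 with only those groups in the fit, and 3 to 46 with libraries left out. At 7d minus 5d 929 became 11131, 13475 and 1592, and 516 with the pool-split libraries. At 7d24h minus 7d 1482 became 3122 and 3458, and at 7d24h minus 3d 1665 became 10915 and 14333.

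Between dog1-4 and Col-0 at 3d the count of 111 became 179 with the replicate block, 217 with DESeq2, 362 with no low-count filter, 26 under the correlation limit, 16 with only those groups, and 2 to 499 with libraries left out. At 7d24h 1105 became 1698 and 126, and 6 (without the second libraries) to 1523. The change in Col-0 went from 2404 to 87 under the limit, that in dog1-4 from 3700 to 5899 without the filter and 157 under the limit. The interaction count of 449 became 51, 734 without the leaf-type seeds, and 0 to 1352 with libraries left out. In the dry pools 945 became 582 to 863 with pools left out, and CYS4 and CYS5 were called in 2 and 4 of 12 alternatives. The replicate block kept 76 of 77 member results, losing CYS4 in the dry pools (adjusted p = 0.052).

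Without thinning, the shares of seeds with a CYS2 UMI were 25.9% (1h), 100% (1d), 96.9% (3d), 95.8% (5d), 97.8% (7d) and 92.6% (7d24h), and 100% in dog1-4 and 99.0% in Col-0 at 3d, and 94.8% in dog1-4 and 100% in Col-0 at 7d24h. At 1h CYS2 rests on 29 UMIs.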
